A study of Mus musculus with 7 samples.

Results

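The receptors that bind the Fc part of immunoglobulin G (IgG) were described across heart and blood leukocytes after myocardial infarction in mice. The 6 genes were taken by symbol: Fcgr1, Fcgr2b, Fcgr3 and Fcgr4, which encode the Fc gamma receptors, Fcer1g, which encodes their shared signalling chain, and Fcgrt, which encodes the neonatal Fc receptor. All 6 were found in each of the 7 count matrices, 6 of the 27514 genes that the matrices share. Their levels were not used to choose them. They were followed in neutrophils, in monocytes and macrophages as 1 class, and in B cells.

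The mice were C57BL6/J, and infarction was produced by permanent ligation of the left coronary artery. The first experiment held 5 libraries of heart CD45+ leukocytes, of which cells labelled from the circulation by an intravenous CD45.2 antibody had been removed. These were a steady state library (5 mice pooled), and libraries of day 1 (5 mice), day 3 (5 mice), day 5 (5 mice) and day 7 (3 mice) after infarction, all male. Neutrophils had been depleted in part before that sort, so neutrophil numbers there reflect the preparation. The time point label of the steady state library was followed, although its condition label names infarction. The second experiment was a pool of heart CD11b+ cells from male mice, in which antibody hashtags marked day 1 (5 mice), day 3 (5 mice) and day 5 (3 mice). The third was a pool of CD11b+ cells of blood and heart from mice aged 8 to 10 weeks, depleted of Ter119+, B220+ and NK1.1+ cells and set to a near equal mix of Ly6G+ and Ly6G- cells. It held unoperated controls, sham-operated mice of days 1 and 3 and infarcted mice of days 1 and 3. Its 7 hashtags are not paired with these conditions in the labels, so its values are given by hashtag number and no groups were compared. Mice were pooled before sequencing in every case, so each experiment has a single set of cells for a day, and p-values measure only the spread between such sets. A blocking antibody against CD16 and CD32, the proteins of Fcgr3 and Fcgr2b, was used on the cells of the CD45+ libraries and of the heart pool before staining.

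Fc gamma receptors let leukocytes bind antibody-coated particles and immune complexes. Fcgr1 (CD64) binds monomeric IgG with high affinity, Fcgr3 (CD16) and Fcgr4 bind complexed IgG, and these activating receptors signal through the ITAM motif of the common gamma chain Fcer1g and the kinase Syk. Fcgr2b (CD32b) carries an inhibitory ITIM motif that recruits the phosphatase SHIP1, and it is the classical Fc gamma receptor of B cells. Fcgrt pairs with beta-2-microglobulin and, in endosomes of macrophages and endothelium, returns IgG and albumin from degradation.

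In the GENCODE annotation of GRCm38, Fcgr2b (ENSMUSG00000026656) is at chr1:170958617-170976547 on the minus strand. Fcgr4 (ENSMUSG00000059089) follows at chr1:171018920-171029761 on the plus strand and Fcgr3 (ENSMUSG00000059498) at chr1:171051174-171064935 on the minus strand. Fcer1g (ENSMUSG00000058715) is at chr1:171229572-171234365 on the minus strand, so 4 of the 6 genes share one stretch of chromosome 1. Fcgr1 (ENSMUSG00000015947) is at chr3:96282909-96293969 and Fcgrt (ENSMUSG00000003420) at chr7:45092990-45103851, both on the minus strand. Antisense genes overlap Fcgr2b (Gm38204) and Fcgrt (Gm45669), and the strand setting of the counting was not given in the sources used here, so their reads may not be told apart.

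Because Fcgr2b and Fcgr3 arose from related genes, their annotated transcripts were compared for stretches that a read could not assign to either gene. The longest identical stretch is shown here, since it limits how far the inhibitory and the activating transcript can be separated.

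Fcgr2b and Fcgr3, shared 129 bases: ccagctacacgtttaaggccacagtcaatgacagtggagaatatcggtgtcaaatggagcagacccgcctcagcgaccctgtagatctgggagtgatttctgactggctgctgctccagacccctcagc

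This stretch lies 3014 bases before the end of the Fcgr2b transcript and 906 bases before that of Fcgr3. No window of 91 bases was shared within the last 500 bases of either, where 3′ libraries take most reads, and no other pair of the 6 genes shared such a window.

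The promoters of the 4 receptor genes are shown next. Over 21 sums of all cell classes, lymphoid and myeloid, Fcgr3 and Fcgr4 were the most alike of the members (Pearson's r = 0.89). They were not alike throughout: between the classical and nonclassical monocyte clusters of the blood and heart pool they went opposite ways. Each is the RefSeq window from 250 bases before to 50 bases after the start, build GRCm38.p6, read 5′ to 3′ on the gene's strand. Capitals mark matches on either strand to GAGGAA and to TTCNNNGAA. The first is the core of ETS factors, among them the myeloid factor PU.1, and the second the form bound by STAT factors.

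Fcgr3, chr1:171059354-171059653, minus strand: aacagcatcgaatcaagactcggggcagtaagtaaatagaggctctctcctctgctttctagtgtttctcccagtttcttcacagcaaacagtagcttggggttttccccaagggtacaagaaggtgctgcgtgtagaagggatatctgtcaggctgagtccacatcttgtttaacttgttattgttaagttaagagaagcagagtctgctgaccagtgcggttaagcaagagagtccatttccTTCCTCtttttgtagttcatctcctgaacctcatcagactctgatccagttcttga
Fcgr4, chr1:171018676-171018975, plus strand: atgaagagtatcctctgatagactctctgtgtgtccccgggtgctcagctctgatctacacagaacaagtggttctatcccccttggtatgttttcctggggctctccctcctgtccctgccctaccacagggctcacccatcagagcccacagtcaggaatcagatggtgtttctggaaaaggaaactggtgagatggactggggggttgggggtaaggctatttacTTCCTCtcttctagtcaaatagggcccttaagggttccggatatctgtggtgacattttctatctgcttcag
Fcgr2b, chr1:170976022-170976321, minus strand: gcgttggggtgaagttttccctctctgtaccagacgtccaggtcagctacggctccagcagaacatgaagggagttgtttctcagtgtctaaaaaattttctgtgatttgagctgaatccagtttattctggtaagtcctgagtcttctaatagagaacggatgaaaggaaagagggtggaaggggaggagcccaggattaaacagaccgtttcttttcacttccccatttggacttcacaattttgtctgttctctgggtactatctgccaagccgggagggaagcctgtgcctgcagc
Fcgr1, chr3:96293920-96294219, minus strand: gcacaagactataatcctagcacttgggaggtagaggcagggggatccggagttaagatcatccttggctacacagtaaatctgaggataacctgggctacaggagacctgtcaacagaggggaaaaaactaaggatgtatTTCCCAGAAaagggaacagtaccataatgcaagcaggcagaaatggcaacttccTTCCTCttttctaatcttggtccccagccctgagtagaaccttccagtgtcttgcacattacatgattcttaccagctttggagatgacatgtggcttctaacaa

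GAGGAA was found once each in the windows of Fcgr3, Fcgr4 and Fcgr1, as TTCCTC, and not in that of Fcgr2b. The motif occurred in 28.3% of 32851 promoters of the same length. TTCNNNGAA was found in the window of Fcgr1 alone of these 4, and in 8.30% of all promoters. These matches describe letters and no binding was measured.

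After filtering, 639, 527, 844, 946 and 1795 cells of the CD45+ libraries were used in the order steady state and days 1, 3, 5 and 7, with 3655070 to 11528452 UMIs (unique molecules counted) a library. The heart pool gave 4282 cells and 92965617 UMIs, and the blood and heart pool 9999 cells and 68219740 UMIs. In the heart pool 17.4% of barcodes exceeded the mitochondrial limit, against 0.443 to 5.12% in the CD45+ libraries. Cells were named by clustering without the 6 genes. Levels are UMIs per 1000000 UMIs of the summed cells of a class (CPM), with exact Poisson 95% intervals that cover counting error only, and they were compared between sums and not between genes. Sums of under 30 cells were left out, which removed neutrophils at steady state (7 cells) and day 7 (28 cells) and B cells at every time but day 7. Neutrophil sums held 41 to 992 cells and monocyte and macrophage sums 236 to 1222 cells.

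The inhibitory receptor gene Fcgr2b was higher on day 1 than later in both neutrophils and monocytes/macrophages, in both experiments. Fcgr1 and Fcgr2b were higher in monocytes/macrophages than in neutrophils in all 6 matched sums, while the ratio of the classes lay between 0.546 and 1.82 for Fcgr3, Fcgr4 and Fcer1g. Fcgrt stood at 731 CPM in monocytes/macrophages at steady state, at 8.64 CPM on day 1, and higher on each later day.

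**Figure D1:**
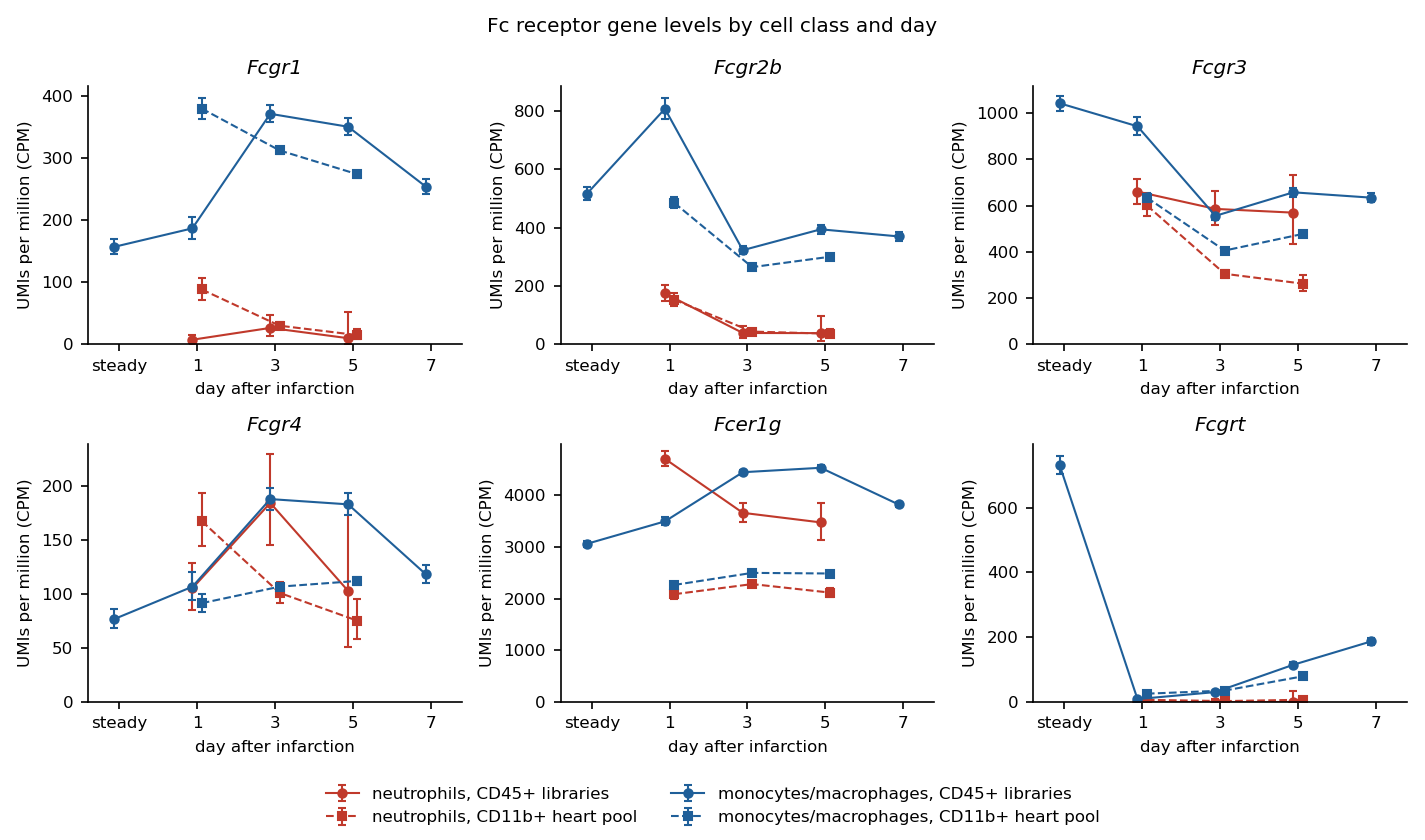
Levels of the 6 genes in CPM (vertical axes, each from 0) against time after infarction, 1 point per class, time and experiment, with exact Poisson 95% intervals. Fcgr2b is highest on day 1 in every line. Fcgrt of monocytes/macrophages is at 731 CPM at steady state and 8.64 CPM on day 1, where the class is made of other clusters. Fcgr1 of monocytes/macrophages is higher on day 3 than day 1 in the CD45+ libraries and lower in the pool.

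In neutrophils, Fcgr2b stood at 174 (147 to 204), 37.8 (21.6 to 61.4) and 37.3 CPM (10.2 to 95.6) for days 1, 3 and 5 of the CD45+ libraries. In the heart pool it stood at 152 CPM (130 to 177), 42.6 CPM (36.5 to 49.4) and 35.3 CPM (24.2 to 49.9) on the same days. Both day 1 sums were thus above all 4 later sums, with no overlap of the counting intervals, and the 2 experiments gave like values although they were prepared differently. The fitted log2 change was -2.66 ± 0.42 (SE) from day 1 to day 3 and -3.10 ± 0.46 to day 5, with edgeR adjusted p = 0.00189 and 0.00135. The day 5 value of the CD45+ library rests on 4 UMIs.

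Fcgr2b was the only member of the 5 tested that passed on day 3 in neutrophils, where 2.46% of the 6184 genes tested did and 1.91% were lower. On day 5, 4 of the 5 passed, all lower than on day 1, where 7.41% of all genes passed, 5.5% lower and 1.91% higher. Fcgrt had too few UMIs in neutrophils to be tested.

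Fcgr3, the low-affinity activating receptor, was measured at 661, 586 and 569 CPM on days 1, 3 and 5 in neutrophils of the CD45+ libraries. The pool gave 601, 304 and 262 CPM. The days of the CD45+ libraries lay close together while day 1 stood apart in the pool, and the fitted change to day 5 was -1.73 ± 0.41 (edgeR adjusted p = 0.0177), with -1.45 within the CD45+ libraries and -1.97 within the pool. The fit scales each sum by its composition (TMM factors from 0.540 to 1.46 in neutrophils), so a fitted change can exceed that of the CPM. Scaled by total counts alone, the median gene was 0.92 higher on day 5 against day 1 than under the first scaling, and Fcgr3 passed no longer at -0.72 (adjusted p = 0.176). Nor did it pass without the day 5 sum of the CD45+ libraries (adjusted p = 0.0920) or that of the pool (adjusted p = 0.136).

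Fcgr4, an activating receptor found in mice on neutrophils and monocytes, stood at 105, 184 and 103 CPM on days 1, 3 and 5 in CD45+ neutrophils. The pool gave 167, 101 and 75.1 CPM. The day 3 value was the highest of the CD45+ libraries and the middle one of the pool. The fitted change to day 5 was -1.64 ± 0.45 (edgeR adjusted p = 0.0360), and with total counts alone it was -0.68 (adjusted p = 0.272). It did not pass without the day 1 sum of the pool (-0.90, adjusted p = 0.203), the day 5 sum of the pool (adjusted p = 0.207) or the day 5 sum of the CD45+ libraries (adjusted p = 0.162).

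Fcgr1 had few UMIs in neutrophils. The CD45+ libraries gave 6.86, 26.0 and 9.33 CPM on days 1, 3 and 5, from 6, 11 and 1 UMIs, and the pool gave 88.1, 29.5 and 14.4 CPM, from 99, 120 and 13 UMIs. The day 1 sum of the pool was far above the other 5, so the fitted change to day 5 of -2.81 ± 0.75 (edgeR adjusted p = 0.0316) became -0.20 (adjusted p = 0.951) when that sum was left out. It was -2.12 (adjusted p = 0.475) without the day 5 sum of the pool, and -0.33 within the CD45+ libraries.

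Fcer1g, the chain that the activating receptors need at the surface, was the most counted of the 6 in neutrophils at 4703, 3658 and 3472 CPM in the CD45+ libraries and 2083, 2279 and 2114 CPM in the pool. Levels differed between the experiments by more than between days, and no contrast passed (adjusted p = 0.380 on day 3 and 0.115 on day 5). Between days 3 and 5 no member passed in neutrophils, and 0.0% of all genes did: edgeR and DESeq2 each called 0, with 133 genes at an unadjusted p under 0.05 in edgeR.

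**Figure D2:**
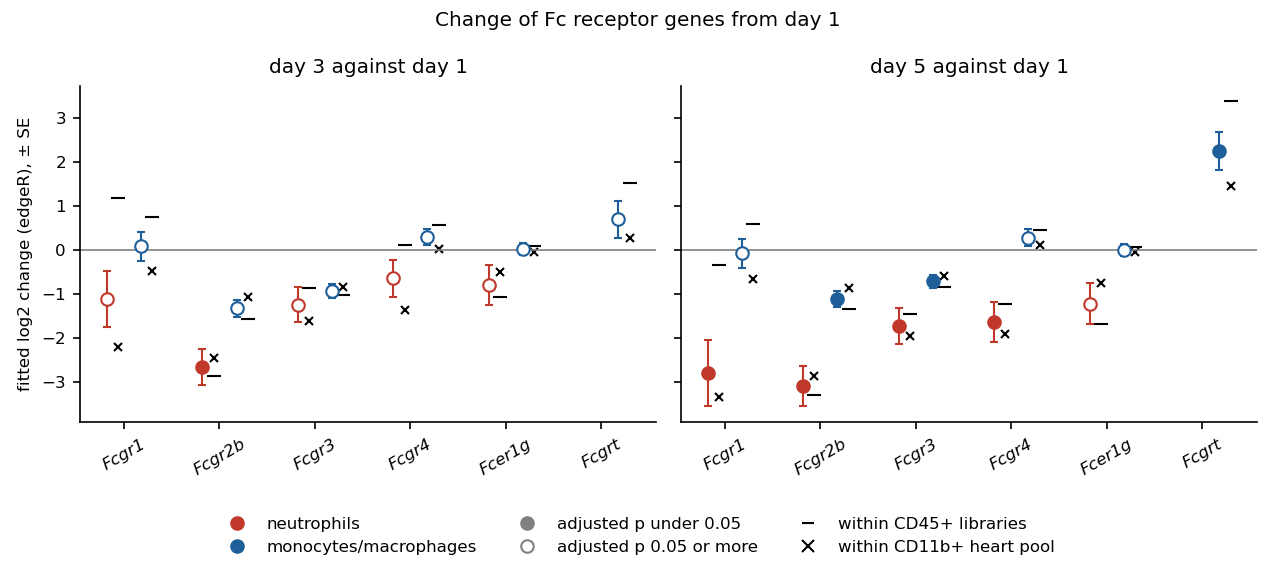
Fitted log2 change from day 1 (vertical axis) for each gene in neutrophils and monocytes/macrophages, with its SE; filled points have an adjusted p under 0.05, and bars and crosses give the change within each experiment. Fcgr2b is below 0 in both classes and experiments on both days, and Fcgrt of monocytes/macrophages is above 0 at 2.25 on day 5.

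Different neutrophil clusters supplied the days. In the CD45+ libraries, 215 of the 217 neutrophils of day 1 lay in a cluster led by the granule gene Ngp and by Retnlg, whereas 133 of 135 on day 3 and all 41 on day 5 lay in one led by G0s2 and Il1r2. In the pool, a cluster led by Retnlg and S100a9 held 82.3% of neutrophils on day 1, 18.2% on day 3 and 29.9% on day 5, and one led by Tnf and Icam1 held the rest.

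Each pool cluster could be followed on its own across days. In the Retnlg and S100a9 cluster, Fcgr2b stood at 158, 34.9 and 25.6 CPM on days 1, 3 and 5, and in the Tnf and Icam1 cluster at 117, 44.5 and 38.7 CPM, so the day 1 level was the highest within both. Fcgr4 behaved otherwise, with 175, 192 and 188 CPM in the first cluster and 117, 78.5 and 35.7 CPM in the second. Fcgr3 was at 638, 354 and 410 CPM in the first cluster and 350, 292 and 209.9 CPM in the second. Thus the pool's Fcgr4 level was flat from day 1 to day 5 in the Retnlg and S100a9 cluster, while Fcgr2b and Fcgr3 were highest on day 1 in both clusters.

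A cluster of 248 cells, 247 of them from day 1 of the CD45+ libraries, carried markers of both classes and was led by Saa3, Cxcl3 and Arg1. It was counted as monocytes/macrophages by a rule on naming ties that was settled after the clusters were seen. Counted as neutrophils instead, it left Fcgr2b at -3.19 on day 3 (edgeR adjusted p = 0.295) and -3.69 on day 5 (adjusted p = 0.105), and no member passed. The direction was kept and the spread between the sums was larger.

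RNA set free from other cells can add UMIs to neutrophils, so the complement genes C1qa, C1qb and C1qc, products of macrophages, were used as a first yardstick. Their summed level in neutrophils was 3.68 to 13.1% of that in monocytes/macrophages of the same sample. Fcgr2b in neutrophils was 9.48 to 31.4% of its monocyte/macrophage level, above the C1q share in all 6 sums. Other monocyte/macrophage genes gave other shares: Csf1r was at 14.3 to 31.2%, above Fcgr2b in both experiments on days 3 and 5, and Ms4a7 was at 3.30 to 49.2%, above Fcgr2b on day 1 of the pool. The part of free RNA in the neutrophil Fcgr2b level was not tested. Fcgr1 was 2.66 to 6.98% in the CD45+ libraries, at or below the C1q share, from 6, 11 and 1 UMIs. In the pool Fcgr1 was at 23.2, 9.44 and 5.23% on days 1, 3 and 5, above C1q shares of 13.1, 6.35 and 3.68%.

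In monocytes/macrophages no member passed from day 1 to day 3, where 3 of 10642 genes (0.0282%, all lower) did, 1820 genes had an unadjusted p under 0.05, and DESeq2 called 476 genes, 2 of them members. From day 1 to day 5, 3 of the 6 members passed, with 9.02% of all genes passing: Fcgr2b and Fcgr3 were lower, as were 5.3% of all genes, and Fcgrt was higher, as were 3.72%. Between days 3 and 5 no member passed, with 0.0188% of genes passing, all higher, and 771 genes at an unadjusted p under 0.05.

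Fcgr2b in monocytes/macrophages of the CD45+ libraries stood at 517 CPM (494 to 540) at steady state and 808 CPM (773 to 845) on day 1. Days 3, 5 and 7 gave 322 (310 to 336), 394 (380 to 409) and 370 CPM (355 to 385). The pool gave 485, 264 and 299.8 CPM on days 1, 3 and 5. Day 1 was the highest in each experiment and day 3 the lowest, and steady state lay between day 1 and the later days. The fitted change was -1.33 ± 0.19 to day 3 (edgeR adjusted p = 0.0794), which missed the threshold, and -1.12 ± 0.19 to day 5 (adjusted p = 0.0286), with -1.35 and -0.88 within the CD45+ libraries and the pool. The day 5 call was lost without the day 3 sum (adjusted p = 0.0601) or the day 5 sum (0.201) of the CD45+ libraries and without the day 5 sum of the pool (0.0807), at changes of -0.95 to -1.22. At day 3 against day 1 the call was gained without either day 1 sum (adjusted p = 0.00126 and 0.000131 for the CD45+ libraries and the pool) or the CD45+ day 5 sum (0.0197).

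Fcgr3 in the same class stood at 1044 CPM at steady state and at 944, 555, 657 and 634 CPM on days 1, 3, 5 and 7 of the CD45+ libraries, and at 635, 405 and 477 CPM on days 1, 3 and 5 of the pool. It followed the order of Fcgr2b after infarction, with day 1 highest and day 3 lowest, but steady state was above day 1. The fitted change was -0.93 to day 3 (edgeR adjusted p = 0.0839) and -0.72 ± 0.15 to day 5 (adjusted p = 0.0448). With total counts alone, which raised the median gene by 0.24, the day 5 change was -0.47 (adjusted p = 0.0953). The call was also lost without any of the 4 sums of days 3 and 5, with adjusted p from 0.122 to 0.446, and at day 3 against day 1 it was gained without either day 1 sum (adjusted p = 0.0103 and 0.00163).

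The day 1 sum of the CD45+ libraries stands apart here: 247 of its 253 cells lie in the Saa3 and Cxcl3 cluster, and it held 24763 CPM of the 20 neutrophil markers beside 21541 CPM of the 23 monocyte/macrophage markers. The other day 1, 3 and 5 sums of this class held 690 to 3282 CPM of neutrophil markers. Without that sum Fcgr2b changed by -0.79 (edgeR adjusted p = 0.00311), Fcgr3 by -0.53 (adjusted p = 0.0345) and Fcgrt by 1.69 (adjusted p = 7.96e-05) from day 1 to day 5, and Fcgr1 by -0.56 (adjusted p = 0.0236).

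Fcgr1 put day 1 at opposite ends in the 2 experiments. In CD45+ monocytes/macrophages its steady state level was 157 CPM (145 to 170), followed by 187 (170 to 205), 372 (358 to 386), 351 (337 to 365) and 254 CPM (242 to 266) for days 1, 3, 5 and 7. The pool gave 380 (364 to 397), 313 (307 to 319) and 274 CPM (269 to 280) for days 1, 3 and 5. Day 1 was thus the lowest day in the first experiment and the highest in the second, while day 3 was above day 5 in both. The fitted change to day 5 was -0.08 (edgeR adjusted p = 0.890), made of 0.59 within the CD45+ libraries and -0.66 within the pool, and without the pool's day 1 sum it was 0.59 (adjusted p = 0.0182).

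The cells that made up day 1 differed as well. In the pool 84.3% of the day 1 class lay in a cluster led by the monocyte gene Plac8 with Arg1 and Fn1, and that cluster held Fcgr1 at 403, 417 and 393 CPM on days 1, 3 and 5. The cluster led by Fabp5, C1qa and Gpnmb, which held 62.2% of the class on day 5, had 260 CPM on day 3 and 251 CPM on day 5. In the CD45+ libraries the Plac8, Chil3 and Ly6c2 cluster held 407, 491 and 465 CPM on days 3, 5 and 7, the Ms4a7, Spp1 and Gpnmb cluster 402, 326 and 243 CPM, and the Saa3 cluster of day 1 held 183 CPM. In both experiments a monocyte-gene cluster was above the macrophage-gene cluster on every day both were measured, although 407 and 402 CPM on day 3 of the CD45+ libraries lay close together.

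Within the Plac8, Arg1 and Fn1 cluster of the pool, Fcgr2b stood at 506, 285 and 335 CPM and Fcgr3 at 669, 440 and 485 CPM on days 1, 3 and 5. The day 1 levels of both were therefore highest within a single cluster too.

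Fcgr4 in monocytes/macrophages stood at 76.7 CPM at steady state and 107, 188, 183 and 118 CPM on days 1, 3, 5 and 7 of the CD45+ libraries, and at 91.4, 107 and 112 CPM on days 1, 3 and 5 of the pool. Day 1 was the lowest day after infarction in both, and the fitted change of 0.28 to day 5 did not pass (edgeR adjusted p = 0.364), though without the pool's day 1 sum it was 0.52 (adjusted p = 0.0366). Fcer1g stood at 3059 CPM at steady state, then 3492, 4443, 4529 and 3819 CPM, and at 2262, 2496 and 2484 CPM in the pool. Its fitted change from day 1 was 0.02 on day 3 and 0.00 on day 5, the smallest of the members in this class.

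Fcgrt, the recycling receptor, had the widest range over time in monocytes/macrophages. Its steady state level was 731 CPM (705 to 759), followed by 8.64 (5.35 to 13.2), 30.3 (26.5 to 34.6), 115 (107 to 123) and 187 CPM (177 to 197) for days 1, 3, 5 and 7 of the CD45+ libraries. The pool gave 25.3, 35.0 and 78.8 CPM on days 1, 3 and 5. Each later day was above the one before it in both experiments, and day 7 was still below steady state. From day 1 to day 5 the fitted change was 2.25 ± 0.44 (edgeR adjusted p = 0.0375), with 3.38 within the CD45+ libraries and 1.45 within the pool, and it passed with each of the 6 sums left out in turn (1.69 to 3.27). Steady state and day 7 have 1 library each and no test. The class also held different clusters: 76.5 and 20.7% of its steady state cells lay in clusters with no cell of day 1. On day 1, 97.6% lay in the Saa3 and Cxcl3 cluster. The part of this cell make-up in the Fcgrt levels was not tested.

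The share of cells with a Fcgrt UMI followed the level. It was 91.1% in the steady state library and 6.72, 20.3, 44.9 and 66.2% in those of days 1, 3, 5 and 7, and after thinning each cell to 2000 UMIs it was 67.9, 2.03, 5.95, 17.0 and 23.0%. Neutrophils of days 1, 3 and 5 in the same libraries had 0 Fcgrt UMIs in 217, 135 and 41 cells, which allows shares of cells with a UMI of up to 1.69, 2.70 and 8.60% (exact binomial) and does not limit the share of cells that express the gene. Median depth was 7254 to 10726 UMIs a cell in monocytes/macrophages and 2542 to 3414 in those neutrophils.

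Fcgrt also differed between monocyte/macrophage clusters of one day. At steady state it stood at 813 CPM in the cluster led by the resident macrophage genes Cbr2 and Folr2 (110 cells) and at 748 CPM in the largest cluster (406 cells), whose leading genes include the heat-shock gene Hspa1a and Atf3. On day 7, 65 cells of that second cluster held 709 CPM, while the Ms4a7, Spp1 and Gpnmb cluster held 130 CPM and the Plac8, Chil3 and Ly6c2 cluster 37.0 CPM. The second cluster's level on day 7 was thus near its steady state level. The Gpnmb cluster held 39.9 CPM on day 3 and 127 CPM on day 5, and in the pool the Fabp5, C1qa and Gpnmb cluster stood at 42.6 CPM on day 3 and 87.6 CPM on day 5.

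The day effects were next compared between the classes in a fit of all 12 sums. No member passed, with 0.0197% of 10136 genes passing for day 3 against day 1, 0.75% for day 5 against day 1 (0.385% higher, 0.365% lower) and 0.0% for day 5 against day 3. The closest was Fcgr2b from day 1 to day 5, where the neutrophil change minus the monocyte/macrophage change was -2.07 ± 0.43 on the log2 scale (edgeR adjusted p = 0.0515). Fcgr4 followed at -2.02 ± 0.49 (adjusted p = 0.0763). DESeq2 called more genes in all, 176 of 6206 on day 3 and 528 of 6009 on day 5. Among them were 1 member on day 3, Fcgr2b, and 4 on day 5, namely Fcgr2b, Fcgr3, Fcgr4 and Fcer1g.

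Levels of the 2 classes in the same sample are given as ratios of CPM, as a description. Neutrophil sums of 3 UMIs or fewer were set to a floor of 3 UMIs. Monocytes/macrophages exceeded neutrophils in all 6 matched sums for Fcgr1, by 4.32 to 27.2 times, and for Fcgr2b, by 3.19 to 10.6 times. The floor held for Fcgr1 on day 5 of the CD45+ libraries (1 UMI). Without it the neutrophil level there was 2.66% of the monocyte/macrophage level, below the 3.67% of day 1 that gives 27.2 times. For Fcgrt the ratio was 2.52 to 14.2, counted against the floor in the CD45+ libraries, where neutrophils had no UMI. The ratio was 0.948 to 1.82 for Fcgr3, 0.546 to 1.78 for Fcgr4 and 0.743 to 1.30 for Fcer1g, each higher in monocytes/macrophages in 5 of the 6 sums. Over the 7 hashtagged sets of blood and heart cells, Fcgr3 was lower in monocytes/macrophages in every hashtag, at 0.504 to 0.790 times the neutrophil level, and Fcgr4 was lower in 6 of 7.

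The balance of inhibitory and activating receptor transcripts was taken as the share of Fcgr2b in the UMIs of the 4 Fc gamma receptors. In CD45+ neutrophils it was 18.4% (exact 95% interval 15.8 to 21.2) on day 1, 4.53% (2.61 to 7.26) on day 3 and 5.19% (1.43 to 12.8) on day 5, and in the pool it was 15.1, 8.92 and 9.14%. With each cell named by its own markers instead of its cluster, the CD45+ shares were 32.9, 6.57 and 2.70%, so the day 1 share depends on the naming. In monocytes/macrophages it was 28.8% at steady state, 39.5, 22.4, 24.9 and 26.9% on days 1, 3, 5 and 7, and 30.5, 24.3 and 25.8% in the pool. Day 1 had the highest share in both classes and both experiments, and the share was higher in monocytes/macrophages than in neutrophils in all 13 sets that held both. Fcgr3 supplied most of the neutrophil UMIs, at 59.6 to 79.2% over the 6 day sums.

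**Figure D3:**
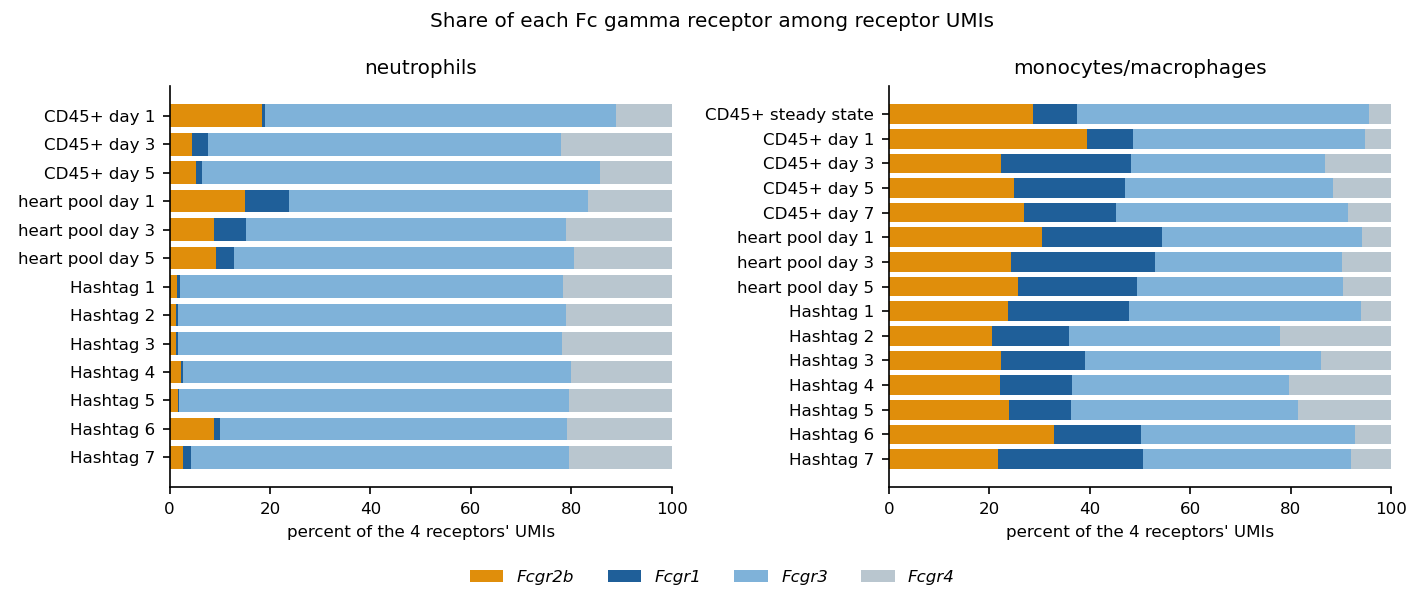
Share of each of the 4 Fc gamma receptor genes in their summed UMIs (horizontal axis, percent), 1 bar per class and library or hashtag. Fcgr2b takes 4.53 to 18.4% in neutrophils of the day sums and 22.4 to 39.5% in monocytes/macrophages, and Hashtag 6 has the highest share in both classes of the blood and heart pool.

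B cells could be measured on day 7 only, with 962 cells and a median of 2755.5 UMIs a cell. Fcgr2b stood at 103 CPM (92.3 to 115) there and was found in 26.4% of cells, or 17.7% after thinning. T and NK cells of the same library, with a median of 3932 UMIs, gave 28.3 CPM (16.5 to 45.3) and 11.1%, or 6.67% after thinning, so the B cell level was above them. Fcgr3 was at 51.3 CPM (43.6 to 60.0) in B cells against 48.3 CPM (32.3 to 69.3) in T and NK cells, and Fcgr1 at 18.6 against 18.3 CPM, with no difference beyond counting error. Fcgr4 was at 13.4 against 11.7 CPM, and the intervals of Fcgrt overlapped, at 32.5 to 46.9 CPM against 10.3 to 34.9 CPM. Fcer1g, which NK cells carry, was at 442 CPM in B cells and 1320 CPM in T and NK cells. Fcgr2b made up 55.3% (51.2 to 59.5) of the 4 receptors' UMIs in B cells, a share above that of every neutrophil and monocyte/macrophage sum. With each cell named by its own markers, the share was 61.0% (50.9 to 70.3). B cells then held 64 instead of 316 Fcgr2b UMIs and 41 instead of 255 activating receptor UMIs. Most receptor UMIs of the B cell cluster thus lay in cells not named B cells by their own markers, so these levels depend on the naming. Dendritic cells of day 7 (76 cells) held Fcgr2b at 125 CPM, Fcgr3 at 66.7 CPM, Fcer1g at 1645 CPM and Fcgrt at 79.2 CPM.

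In the blood and heart pool, neutrophil levels over the 7 hashtags had a lowest, median and highest of 8.65, 14.5 and 97.4 CPM for Fcgr2b and of 531, 627 and 753 CPM for Fcgr3, both highest in Hashtag 6. Fcgr4 had 144, 179 and 228 CPM, Fcer1g 2071, 2435 and 3034 CPM and Fcgr1 2.41, 3.04 and 15.8 CPM, the last highest in Hashtag 7. Fcgrt reached at most 1.40 CPM. Fcgr2b thus had the widest range over the hashtags and Fcgr3 the narrowest. In Hashtags 1, 2, 3 and 5 neutrophil Fcgr2b was 5.24 to 7.94% of its monocyte/macrophage level, below the C1q share of 9.84 to 130%. That C1q share rests on 12 to 18 neutrophil UMIs and on 34 to 270 monocyte/macrophage UMIs, so it is a weak yardstick there. In Hashtags 4, 6 and 7 neutrophil Fcgr2b was at 11.2, 21.2 and 9.22%, above C1q shares of 3.50, 0.734 and 0.796%. Those shares rest on 16, 10 and 12 neutrophil UMIs. Csf1r was at 25.6, 31.0 and 30.4% in the same 3 hashtags, above Fcgr2b. Ms4a7 was at 4.15, 0.0 and 0.0%, below Fcgr2b. The part of free RNA in these Fcgr2b levels was not tested.

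Monocytes/macrophages of the same hashtags had 137, 182 and 460 CPM of Fcgr2b and 281, 344 and 595 CPM of Fcgr3, again highest in Hashtag 6, and 93.6, 121 and 378 CPM of Fcgr1, highest in Hashtag 7. Fcgr4 had 56.2, 103 and 149 CPM, Fcer1g 2775, 2956 and 3059 CPM and Fcgrt 29.0, 47.5 and 52.9 CPM. The hashtags differed in which clusters they held, so the clusters were read separately.

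Fcgr4 went the opposite way to Fcgr1, Fcgr2b and Fcgr3 between 2 monocyte clusters. The cluster led by Ace, Ear2 and Spn, genes of nonclassical monocytes, had 413 to 530 CPM of Fcgr4 over its 5 hashtags, with 34.8 to 71.5 CPM of Fcgr1, 72.8 to 124 CPM of Fcgr2b and 129 to 201 CPM of Fcgr3. The cluster led by Chil3, F13a1 and Ccr2, genes of classical monocytes, had 20.3 to 35.3 CPM of Fcgr4 over its 7 hashtags, with 109.5 to 231 CPM of Fcgr1, 143 to 220.1 CPM of Fcgr2b and 325 to 450 CPM of Fcgr3. The ranges of the 2 clusters did not overlap for any of the 4 receptors. Nor did those of Fcgrt, at 90.3 to 114 CPM against 22.4 to 34.0 CPM, or of Fcer1g, at 3721 to 3903 CPM against 2535 to 2784 CPM. The share of all genes whose ranges do not overlap was not measured. The members took no part in the clustering, and the values are a description with no test.

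Another cluster, led by Thbs1, Spp1 and Arg1, was found in 3 hashtags (37, 114 and 149 cells in Hashtags 1, 6 and 7). It had 363 to 543 CPM of Fcgr1, 345 to 699.5 CPM of Fcgr2b and 459 to 757 CPM of Fcgr3, each above both monocyte clusters. Its Fcgr4 was at 18.4 to 119 CPM, with a median of 105 CPM, so Fcgr4 was not opposite to the others in every cluster. A cluster led by Apoe and Cd74 (41 and 42 cells in Hashtags 2 and 4) had 294 to 321 CPM of Fcgr4. It also held 64.2 to 98.4 CPM of Fcgr1, 143 to 244 CPM of Fcgr2b and 294 to 411 CPM of Fcgr3. Among neutrophils, the cluster led by Cxcl2 and Basp1 in Hashtags 6 and 7 had Fcgr2b at 244 CPM in Hashtag 6 and 38.5 CPM in Hashtag 7, against 3.95 to 18.7 CPM in the 2 largest neutrophil clusters.

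**Figure D4:**
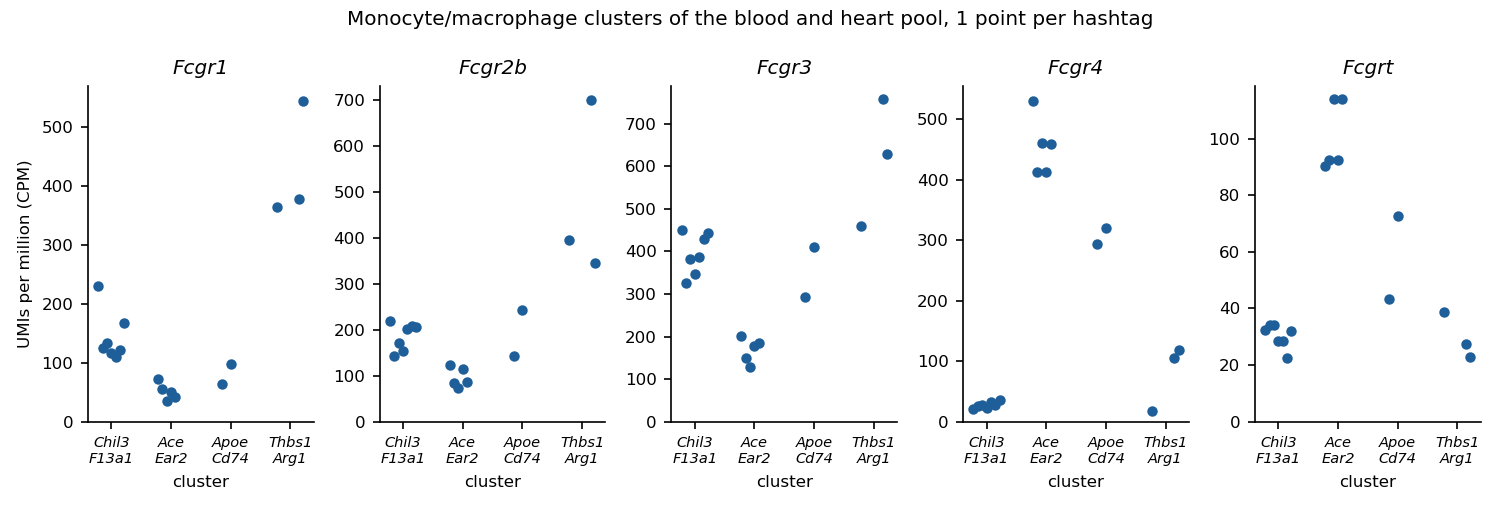
Level of 5 of the genes in CPM (vertical axes, each from 0) in 4 monocyte/macrophage clusters of the blood and heart pool, each named by leading genes, 1 point per hashtag with 30 or more cells of the cluster. Fcgr4 and Fcgrt are highest in the Ace and Ear2 cluster, and Fcgr1, Fcgr2b and Fcgr3 in the Thbs1 and Arg1 cluster.

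The protein of Fcgr1 was counted in the heart pool with a CD64 antibody. In monocytes/macrophages the median was 35 antibody UMIs a cell (quartiles 24 to 55) on day 1, 50 (30 to 80.25) on day 3 and 56 (36 to 82) on day 5, and in neutrophils it was 15 (11 to 18), 14 (11 to 17) and 17 (13 to 22). The protein count was thus higher in monocytes/macrophages on all 3 days of this pool. It was higher on later days while the Fcgr1 transcript was lower, at 380, 313 and 274 CPM. As a share of all antibody UMIs, CD64 took 4.94, 6.49 and 7.78% in monocytes/macrophages and 1.82, 1.82 and 2.50% in neutrophils. There is 1 hashtag set a day, so these are values with no test. In the blood and heart pool CD64 counts were low in both classes. Medians were 5 to 6 in monocytes/macrophages and 4 in neutrophils of the 7 hashtags. Its share of antibody UMIs was 1.07 to 1.49% and 1.33 to 1.46%, while the Fcgr1 transcript was 21.4 to 42.6 times higher in monocytes/macrophages. Dendritic cells had a median of 4, and the mast cell or basophil cluster, in which no Fcgr1 UMI was counted, 4.5. The Thbs1, Spp1 and Arg1 cluster had a median of 8. How far such counts exceed the background of the antibody was not measured, so they do not show like amounts of CD64 in the classes.

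**Figure D5:**
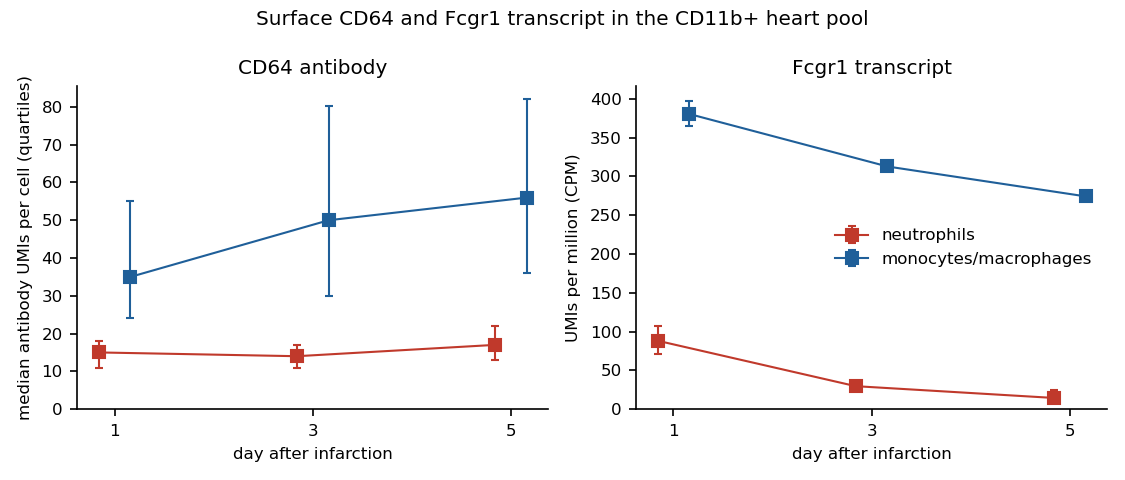
CD64 antibody count per cell (left, median with quartiles) and Fcgr1 transcript level in CPM (right, with exact Poisson 95% intervals) on days 1, 3 and 5 of the CD11b+ heart pool, in neutrophils and monocytes/macrophages. In monocytes/macrophages the antibody median goes from 35 to 56 while the transcript goes from 380 to 274 CPM.

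Of the 3 clusters, the Fabp5, C1qa and Gpnmb cluster had a CD64 median of 68 with Fcgr1 at 251 to 260 CPM, and the Plac8, Arg1 and Fn1 cluster a median of 38 with Fcgr1 at 393 to 417 CPM. The cluster led by H2-Aa had the lowest median, 33, with Fcgr1 at 268 to 291 CPM, so the clusters kept no single order of protein and transcript. Between single cells of a day the relation was positive. Spearman's rho of CD64 and Fcgr1 UMIs per cell was 0.55, 0.51 and 0.40 over the 236, 1092 and 1222 monocytes/macrophages of days 1, 3 and 5, and 0.17, 0.03 and -0.13 over the 254, 992 and 224 neutrophils. Cells share a library and differ in depth, and monocytes/macrophages with an Fcgr1 UMI had more UMIs in all (medians of 22556.5, 30240 and 29691) than those without (17947, 9717.5 and 10840). Their CD64 medians were 38, 53 and 58 against 14.5, 19 and 24.

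Pathway lists were read beside the members. In monocytes/macrophages no listed gene passed at day 3 against day 1 or at day 5 against day 3. From day 1 to day 5, of 8 tested receptors listed as partners of such signalling chains, 5 were lower and none higher, against 5.3% and 3.72% of all genes, among them Trem1, an amplifier of inflammation, at -2.70 (edgeR adjusted p = 0.00693) and Pilrb1 at -1.88 (adjusted p = 0.0418). The list's median was -1.43 against -0.03 over all genes. Its count was lower without the day 5 sum and higher without the day 1 sum of the CD45+ libraries. Those fits keep a single sum of that day, and the calls over all genes varied with the sum left out too. Trem1 also belongs to the neutrophil markers, which were high in the day 1 sum of the CD45+ libraries, and their part in this was not tested.

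Of 15 inhibitory genes tested, 2 rose to day 5, Clec12a at 1.70 (edgeR adjusted p = 0.0116) and Sirpa, the receptor of CD47, at 0.98 (adjusted p = 0.0319), and Dok2 fell by 1.75 (adjusted p = 0.0170). Of 26 activating kinases and adaptors, Malt1 at -1.83 (adjusted p = 0.0136) and Bcl10 at -0.77 (adjusted p = 0.0480) were lower, and both act downstream of ITAM receptors in one complex. Of 4 other Fc receptor genes, Fcrls, an Fc receptor-like gene, rose by 4.74 (adjusted p = 0.0203), from 4.53 to 550.5 CPM in the CD45+ libraries and from 30.0 to 387 CPM in the pool. Fcrlb fell by 2.93 (adjusted p = 0.0415) at levels of at most 2.71 CPM. None of the 17 phagocytosis genes passed, nor any of the 4 ITAM adaptors and partners, a list that holds Fcer1g itself. Genes of both lists did pass without the day 1 sum of the pool, a fit in which day 1 rests on a single sum. The calls over all genes also varied with the sum left out, so this is no result particular to these lists. Of the 9 genes named here, Trem1, Clec12a, Malt1 and Fcrls passed with each of the 6 sums left out in turn, while Bcl10, Sirpa and Fcrlb passed in 2 of those 6 fits and Dok2 and Pilrb1 in 5.

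In neutrophils the kinase Tec was the only listed gene that passed on day 3, at -2.06 (edgeR adjusted p = 0.0285). On day 5, Tec was again lower (-2.04, adjusted p = 0.0295), as was Pirb (-1.39, adjusted p = 0.0473) among 13 inhibitory genes. Pira2 (-2.01, adjusted p = 0.0176) and Trem1 (-1.81, adjusted p = 0.0207) were lower among 8 tested receptors listed as partners of signalling chains. Arpc5 (-1.59) and Rac1 (-1.42), which move actin in phagocytosis, were lower among 17 genes, both with edgeR adjusted p = 0.0420. No listed gene rose, and none of these calls held in all 6 fits that leave out a sum, with 3 to 5 fits calling each. The medians of 5 lists lay between -0.54 and -0.93, against -0.03 over all genes tested, and the 1 gene tested of the other Fc receptors stood at 1.00.

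Likeness was measured by Pearson's r of log2(CPM + 1) over the 21 sums of all classes in the CD45+ libraries and the heart pool, among 2343 genes of at least 50 CPM on average, as a description over sums that share libraries. Fcgr3 and Fcgr4 were most alike among the members at r = 0.89, followed by Fcer1g with Fcgr4 (0.73), Fcer1g with Fcgr3 (0.72) and Fcgr1 with Fcgr2b (0.72). Fcgrt and Fcgr4 were least alike at -0.24. The nearest other genes were Emp1 (0.88), Tmbim1 (0.87) and Grn (0.85) for Fcgr1, Pid1 (0.88), Ccl9 (0.88) and Cybb (0.87) for Fcgr2b, and Pla2g7 (0.93), C5ar1 (0.91) and Plin2 (0.90) for Fcgr3. For Fcgr4 they were Plin2 (0.92), Tlr2 (0.92) and C5ar1 (0.91), so Plin2 and C5ar1 stood near both Fcgr3 and Fcgr4. Fcer1g was nearest to Sem1 (0.85), Slc3a2 (0.84) and Metrnl (0.84), and Fcgrt to Pltp (0.95), Cd83 (0.94) and Dpysl2 (0.92).

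Single cells often held both Fcgr2b and Fcgr3. After thinning, 36.2% of pool monocytes/macrophages of day 1 and 25.1% of day 5 had a UMI of each, against 32.9% and 23.2% given by the product of the single shares. For Fcgr1 with Fcgr2b the share was 25.1% on day 1, against a product of 24.2%. The inhibitory and the activating transcript were thus found together at about the rate their single shares give.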

How the data were processed

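The authors deposited unnormalized UMI counts for every gene and barcode. They were made with Cell Ranger, which both pools' files name as version 3.0.2 per the file headers, against mm10 (GRCm38) per the submitters' processing notes. The annotation release, strand setting and cell caller were not given in the sources used here. The deposited antibody and hashtag values are UMI counts too. The members and the gene lists were chosen with earlier results of these data known.

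A barcode was used if it had 200 genes or more and no more than 10% mitochondrial UMIs. Gaussian mixtures of 2 parts gave the hashtag calls, which left out 6.28% and 12.5% of barcodes with several hashtags and 7.81% and 1.40% with none in the heart pool and the blood and heart pool; Scrublet removed 12 barcodes of the CD45+ libraries. At most 2 barcodes were shared by any 2 CD45+ libraries and 12 by the pools. Cells were clustered with scanpy 1.11.5 (2000 variable genes without the members and other Fc receptor genes, 30 components, 15 neighbours, Leiden resolution 0.5, no integration) and named from fixed marker lists. The rule for ties between classes was changed after the clusters were seen, from the number of raised markers to the share of markers detected in 20% of cells, which moved 1 CD45+ cluster of 248 cells from neutrophils to monocytes/macrophages. T and NK cells formed 1 class. Clusters made up the classes in different proportions on each day, and 1 heart pool cluster of 262 cells was left unnamed.

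Counts were summed per class, day and experiment for sums of 30 or more cells. Days 1, 3 and 5 were compared with edgeR 4.0.16 (quasi-likelihood test, two-sided, TMM, filterByExpr, terms for day and experiment, Benjamini-Hochberg adjustment over all genes tested, threshold 0.05), on 6 sums a class, and the class difference on 12. The experiment term is the block: it pairs the sums of different days that come from one experiment. DESeq2 1.42.0, total-count scaling, no low-count filter, other clusterings and leaving out each sum were the alternatives. Counts of day 3 against day 1 were simulated with a coefficient of variation of 30% in both classes. On these, the test recovered 50.5% of 200 genes changed by 2 on the log2 scale among 5767 neutrophil genes and 66% among 10496 monocyte/macrophage genes. The fits of the data estimated 31.0% in neutrophils and 19.7% in monocytes/macrophages, so the 66% does not describe recovery at that class's own spread. All 6 members are named in every class. From each pathway list the 2 genes with the largest change in each direction past the threshold are named, and for each member the 3 genes of highest correlation. One listed gene is not reported here. Promoter windows came from RefSeq, and all 6 members matched.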

Additional observations from a re-analysis of the deposited data

Results flagged for a closer look

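Outside the classes compared, a mast cell or basophil cluster of 42 cells in the blood and heart pool carried part of the set. Fcgr2b stood there at 104 CPM (exact Poisson 95% interval 61.9 to 165, 18 UMIs), Fcgr3 at 435 CPM (342 to 545, 75 UMIs) and Fcer1g, which in these cells is also a chain of the IgE receptor, at 2035 CPM (1828 to 2260, 351 UMIs). They are given because this cluster entered no comparison, and no background share was measured for its 42 cells. Fcgr1, Fcgr4 and Fcgrt had 0 UMIs, which allows up to 21.4 CPM.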

How the results depend on the processing

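Each sum of a day comes from 1 library or hashtag set, so a day has 2 values, and counts of UMIs limit Fcgr1, Fcgr2b and Fcgrt in neutrophils. Members passing in neutrophils from day 1 to day 3 numbered 1. This was 0 with no replicate block (the experiment term left out) and 0 with the first rule on naming ties, and 1 to 4 with a sum left out. From day 1 to day 5 they numbered 4, which became 1 with total counts, 0 with no replicate block, 2 at Leiden resolution 1, 2 with cells named by their own markers, 0 with the first rule on naming ties, and 1 to 4 with a sum left out (1 without pool day 5, 2 without CD45+ day 5). In monocytes/macrophages 0 passed from day 1 to day 3, which became 2 with no filter, 1 at Leiden resolution 1 and 1 with own markers. It became 2 with DESeq2, where 476 of 9816 genes passed, against 3 of 10642 in edgeR, and it moved with a sum left out. Calls over all genes moved with the sum left out in every contrast, and a day that loses a sum keeps a single one. From day 1 to day 5 they numbered 3, which became 0 with no replicate block, 1 with only the 2 days fitted, and 1 to 5 with a sum left out. From day 3 to day 5 the count of 0 became 1 with only the 2 days fitted and 1 with DESeq2, where 91 of 10642 genes passed. It moved with a sum left out too. For the class difference the count of 0 became 1 with DESeq2 from day 1 to day 3, where 176 of 6206 genes passed. From day 1 to day 5 it became 4 with DESeq2, where 528 of 6009 genes passed, and it moved with a sum left out. With no replicate block the lowest adjusted p of a member against day 1 was 0.187 (edgeR), for Fcgrt of monocytes/macrophages. The naming rule for ties and the addition of the unnamed cluster were chosen after seeing the data. The cause was not tested.

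Some fitted changes near 0 took the other sign. For Fcgr1 of monocytes/macrophages from day 1 to day 5 the value was 0.16 with total counts, 0.027 with no filter, 0.0068 with only the 2 days fitted and -0.56 to 0.59 with a sum left out. For Fcer1g of the same contrast it was -0.027 with the members kept among the clustering genes, -0.0063 at Leiden resolution 1, -0.0059 with a 20% mitochondrial limit, -0.014 with the unnamed cluster added and -0.0054 with DESeq2. From day 3 to day 5 it was 0.013 with total counts for Fcgr4 (-0.19 to 0.16 with a sum left out) and 0.011 for Fcer1g (-0.068 to 0.029). The class difference of Fcgr3 from day 1 to day 3 was 0.10 with total counts (-0.51 to 0.15 with a sum left out). With a sum left out, Fcgr1 ranged from -2.16 to 1.10 in neutrophils and -0.42 to 0.76 in monocytes/macrophages from day 1 to day 3, from -0.44 to 0.15 in monocytes/macrophages from day 3 to day 5, and from -2.11 to 1.18 in the class difference from day 1 to day 3, and Fcgrt from -2.18 to 0.20 in the class difference from day 3 to day 5. With cells named by their own markers, 78 of 174 levels lay outside the counting interval of the value reported. Fcgr2b kept its direction in both classes from day 1 under each alternative run.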
